A study of Mus musculus with 24 samples.

Results

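The comparison described here set 4 libraries of mouse breast cancer cells labelled Tumor shAsns-1 against 4 labelled Tumor shRenilla, over all genes. They are 8 of the 24 libraries of the series and were chosen by their titles alone, which carry the replicate letters A to D. All 8 came from the 4T1-T line, a mammary carcinoma line of BALB/c mice, infected with a short hairpin RNA. The shAsns-1 hairpin is named for Asns, and shRenilla for a luciferase gene that mouse cells lack. In both groups the cells had been recovered from primary tumors, selected with 6TG (6-thioguanine) and grown in DMEM with added non-essential amino acids. The remaining groups were tumor-derived cells with a second hairpin, shAsns-2, and lung metastasis-derived cells with each of the 3 hairpins, again 4 libraries each. All 24 libraries entered the fit, with its filter, scaling and estimate of spread, and lung-derived cells were also compared. Total RNA was isolated with Trizol, and the sequencing libraries were made by the NuGEN Ovation RNAseq V2 method. It is not stated what the letters stand for (mice, cultures or RNA preparations). The p-values therefore reflect only how much libraries vary, over all 24 in the fit, and that variation may be technical.

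Asparagine synthetase, the product of Asns, makes asparagine from aspartate and glutamine and is induced when amino acids run short. Carcinoma cells such as 4T1 can hold an epithelial state, with E-cadherin, tight junctions and keratins, or move toward a mesenchymal state with motile, matrix-remodelling properties. That epithelial-mesenchymal transition (EMT) is driven by transcription factors of the Snail, Zeb and Twist families, which repress junction genes, and is opposed by epithelial regulators of the Grainyhead and Ovol families and by the splicing factors Esrp1 and Esrp2.

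Asns, the gene the hairpin is named for, was higher and not lower in the libraries labelled shAsns-1. It measured 185, 152, 185 and 159 CPM in the shAsns-1-labelled libraries A to D and 84.6, 84.6, 61.7 and 100.2 CPM in the shRenilla libraries A to D (CPM, the count scaled to a common library size after TMM normalisation). No library of one group overlapped the other, and the difference of the means was 87.6 CPM (170 ± 17.1 against 82.8 ± 15.9 CPM, mean ± SD, n = 4 each; exact two-sided permutation p = 0.0286 over 70 orderings, the smallest that 4 against 4 can give). The edgeR fit gave a log2 fold change of 1.04 ± 0.16 SE, adjusted p = 1.47e-05. The same label was also highest for Asns in lung-derived cells, at 219, 191, 176 and 189 CPM against 69.1, 53.1, 70.2 and 62 CPM in lung shRenilla. The rise is opposite to a knockdown, so each direction given below compares 2 labels and does not describe a loss of Asns. Hprt, whose loss gives resistance to 6-thioguanine, was not called (log2 fold change -0.30 ± 0.16 SE, adjusted p = 0.17), but was called lower with offsets for GC content and length (adjusted p = 0.000264) and with limma (adjusted p = 0.0114).

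Read depth was similar in both groups, at 25.6 to 36.4 M counts in the shAsns-1-labelled libraries and 27.9 to 29.8 M in shRenilla. The 10 highest genes held 5.67 to 5.79% of counts in the former and 5.07 to 5.38% in the latter. Rn45s, the ribosomal RNA precursor, measured 612, 273, 650.0 and 562 CPM in the shAsns-1-labelled libraries A to D and 1369, 2256, 1478 and 1637 CPM in the shRenilla libraries A to D, so it moved with the groups (log2 fold change -1.68 ± 0.39 SE, adjusted p = 0.00165), and its part in the results was not tested. Markers of other cell types were scarce. The summed level of 8 macrophage markers was 10.02 to 12.4 CPM against 9.75 to 11.5 CPM, that of 7 endothelial markers at most 1.19 CPM, that of 7 lung epithelial markers at most 0.154 CPM with 4 of 7 at 0 in all 8 libraries, and Ptprc, the pan-leukocyte gene, at most 0.42 CPM. Of 9 fibroblast markers 8 averaged below 1 CPM. Their sum was 23.99 to 32.4 CPM against 15.7 to 18.2 CPM, nearly all of it Pdgfra. Of 8 mammary carcinoma markers, 7 were tested, of which 5 were lower and 0 higher, and their sum was 455 to 611 CPM against 745 to 898 CPM, with Krt5 at 0. The called share of the list was 71.4% beside 33.9% of all genes. The list's members Krt8 (206, 245, 189 and 184 CPM against 165, 180.5, 184 and 166 CPM) and Krt18 (241, 267, 259 and 207 CPM against 257, 254, 181 and 242 CPM) were abundant in both groups and not called.

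Genes differed between the labels across the whole range of levels, most of them by modest amounts. Of 12625 genes tested, 4278 were called at an adjusted p under 0.05, which is 33.9%, with 2041 higher (16.2%) and 2237 lower (17.7%) in the shAsns-1-labelled libraries. The median called gene differed 1.54-fold. At least 2-fold differences were called for 432 genes higher and 526 lower, at least 4-fold for 92 and 115, and at least 8-fold for 21 and 34. The 4 and 4 libraries did not overlap for 4693 genes, or 37.2%, split almost evenly into 2343 higher and 2350 lower (18.6% each), and 3721 genes were both called and without overlap. The called genes together held nearly the same share of all reads in both groups, 33.7% against 34.3%. As these are bulk RNA samples, fewer cells of a kind and less RNA per cell cannot be told apart. In a principal component analysis of the 8 libraries the first component, with 63.9% of variance, placed the 4 shAsns-1-labelled libraries at -34.8 to -29.4 and the 4 shRenilla libraries at 27 to 37.4.

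**Figure D1:**
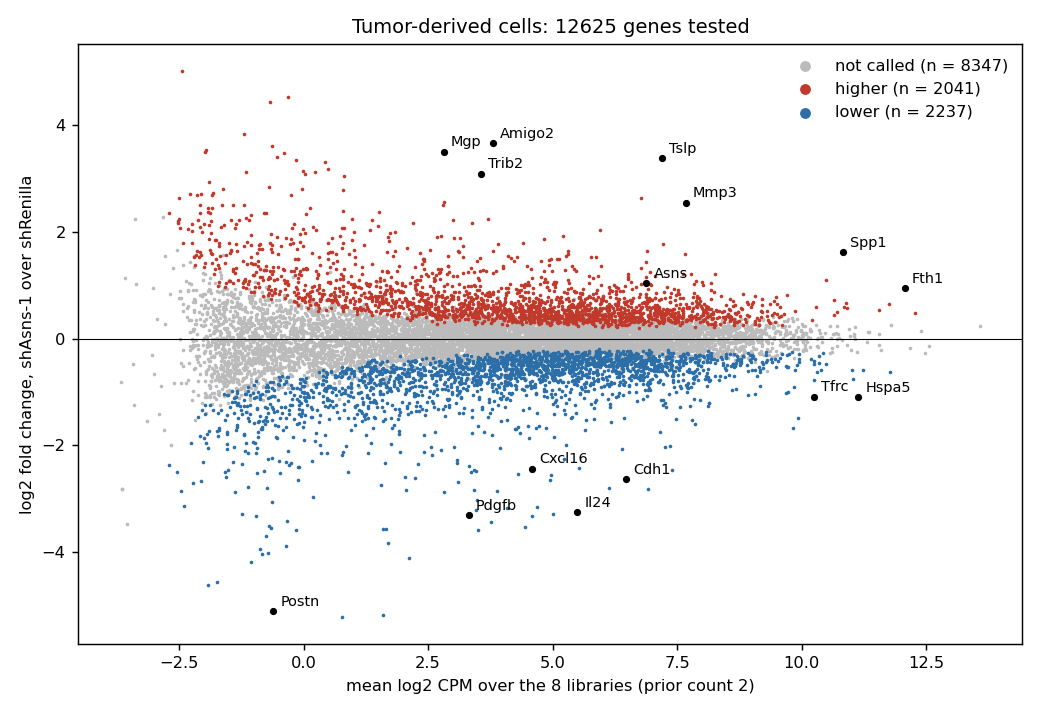
Mean log2 CPM over the 8 libraries (horizontal) against the log2 fold change of shAsns-1-labelled over shRenilla libraries (vertical), with 1 point for each of 12625 genes. Called genes lie on both sides in similar numbers, 2041 higher and 2237 lower, and black points are named genes such as Amigo2 at 3.66 and Postn at -5.11.

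Among called genes averaging 3 or more in log2 CPM, without overlap between groups, the 15 largest rises were led by Amigo2, Tslp and Trib2. Amigo2, an adhesion protein of neurons and vessels that several carcinomas also express, measured 46, 53.4, 49.9 and 50.1 CPM in the shAsns-1-labelled libraries A to D and 4.19, 2.57, 3.4 and 5.64 CPM in the shRenilla libraries A to D, a 12.6-fold difference (log2 fold change 3.66 ± 0.24 SE, adjusted p = 1.25e-11). Tslp, the epithelial cytokine thymic stromal lymphopoietin, measured 503, 342, 575 and 499.9 CPM in the shAsns-1-labelled libraries A to D and 58.9, 37.4, 37.8 and 50.1 CPM in the shRenilla libraries A to D (log2 fold change 3.38 ± 0.20 SE, adjusted p = 2.62e-12). Trib2, a pseudokinase that scaffolds protein degradation, measured 29.4, 34.7, 35.3 and 37.1 CPM against 4.34, 3.49, 3.47 and 4.76 CPM in the same order (log2 fold change 3.09 ± 0.19 SE, adjusted p = 3.36e-12). For all of these genes the lowest shAsns-1-labelled library lay several times above the highest shRenilla library. Next came Phex, an endopeptidase of phosphate balance, at 275, 248, 298 and 282 CPM against 51.9, 39.9, 32.4 and 54.7 CPM, and the stromelysin gene Mmp3 at 564, 324, 715 and 434 CPM against 118, 77.7, 61 and 91.5 CPM. The Mmp3 libraries of the label spread widely, with C highest and B lowest. Angpt1, a ligand of the Tie2 receptor, differed 4.72-fold, Casp1, the inflammasome protease, 4.66-fold, and Dll4, a Notch ligand, 4.49-fold. The other 7 of the 15 were Arhgap18, Gchfr, Mmp1b, Gem, Olfm1, Nptx1 and Slpi, with differences of 3.41-fold to 4.08-fold. Amigo2 lies on chromosome 15 from 97244125 to 97247287, minus strand and Trib2 on chromosome 12 from 15791727 to 15816922, minus strand (GRCm38).

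Among the 15 largest falls were Macc1, Serpinb5, Il24, Pdgfb and Fgfbp1. Macc1, a regulator of the receptor gene Met, measured 9.04, 12, 11 and 9.13 CPM in the shAsns-1-labelled libraries A to D and 88.5, 95.8, 119 and 97.1 CPM in the shRenilla libraries A to D (log2 fold change -3.28 ± 0.17 SE, adjusted p = 3.78e-13). Serpinb5, the epithelial serpin maspin, measured 9.95, 9.56, 6.62 and 5.08 CPM against 82.8, 83.4, 57.2 and 88.5 CPM in the same order (log2 fold change -3.33 ± 0.27 SE, adjusted p = 5.59e-10). Il24, a cytokine of the interleukin 10 family, measured 18.9, 13.9, 15.4 and 10.9 CPM against 167, 137, 123 and 137 CPM (log2 fold change -3.26 ± 0.20 SE, adjusted p = 4.34e-12). The falls were ranked by the same rule as the rises, so their lack of overlap between the groups was set by that rule. Pdgfb, a platelet-derived growth factor chain that draws pericytes to vessels, measured 2.48, 5.74, 2.2 and 2.75 CPM against 26.6, 36.8, 40.6 and 25.3 CPM (log2 fold change -3.31 ± 0.23 SE, adjusted p = 2.66e-11), where library B of the label was higher than the other 3. Fgfbp1, which releases fibroblast growth factors from matrix, measured 5.76, 11.5, 6.26 and 3.36 CPM against 95.4, 68.3, 67 and 76.6 CPM (log2 fold change -3.53 ± 0.25 SE, adjusted p = 5.17e-11). Library B was again the highest of its group, as it was for Esrp1, the largest of the 15 falls. Esrp1 measured 2.78, 6.74, 2.71 and 1.78 CPM against 37.5, 43, 48.5 and 36.3 CPM (log2 fold change -3.58 ± 0.47 SE, adjusted p = 2.05e-06). The remaining 9 of these 15 genes were Moxd1, Rgs16, Krt14, Mpzl2, Lama3, Adam12, Asb4, Ctgf and Adamts1, which were 6.97-fold to 10.9-fold lower. Macc1 lies on chromosome 12 from 119314270 to 119469987, plus strand, Il24 on chromosome 1 from 130882074 to 130887454, minus strand and Pdgfb on chromosome 15 from 79995874 to 80014977, minus strand.

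By absolute level, the 10 largest gains included both ferritin chains, and the 10 largest losses included the transferrin receptor gene and chaperone genes. Fth1, the heavy chain of the iron store ferritin, measured 5634, 6504, 5993 and 5888 CPM in the shAsns-1-labelled libraries A to D and 3507, 2859, 2598 and 3555 CPM in the shRenilla libraries A to D (log2 fold change 0.94 ± 0.21 SE, adjusted p = 0.00132), and Ftl1, the light chain, measured 2238, 2607, 2386 and 2126 CPM against 1542, 1645, 1224 and 1922 CPM (log2 fold change 0.56 ± 0.19 SE, adjusted p = 0.0245). Tfrc, the transferrin receptor that brings iron into cells, measured 886, 783, 830.1 and 827 CPM against 2189, 1734, 1570 and 1590 CPM (log2 fold change -1.09 ± 0.16 SE, adjusted p = 7.29e-06). None of these iron genes overlapped between the groups. Spp1, the secreted matrix protein osteopontin, measured 4233, 2387, 3912 and 2629 CPM against 1552, 875, 809 and 1044 CPM (log2 fold change 1.62 ± 0.21 SE, adjusted p = 1.46e-06). Btg1, an antiproliferative gene, measured 2030, 2207, 2023 and 2172 CPM against 1145, 837, 918 and 1039 CPM (log2 fold change 1.10 ± 0.14 SE, adjusted p = 7.83e-07). Prdx1, Calm2, Mtap, H2afz and Vim were also among the 10 largest gains, 1.4- to 1.64-fold higher. The losses were led by Hspa5, Ncl, the nucleolar protein gene, and Rn45s, and included Ctsl, Ptgs2, Hsp90ab1, Hspa8, Tmed5 and the glycosyltransferase gene Stt3a (log2 fold change -1.01 ± 0.18 SE, adjusted p = 0.000134). The call of Ftl1 ended without shAsns-1-labelled B or C or without shRenilla A or C, with an adjusted p of 0.0534 to 0.105, and that of Prdx1 without shRenilla C, with an adjusted p of 0.0565.

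Most epithelial junction genes were lower. Of 42 tested, 27 fell, 2 rose and 13 were not called, with a median log2 fold change of -1.12 beside -0.01 over all genes. Their called share was 69% beside 33.9% of all genes. The desmosomal cadherin gene Dsg2 measured 12.1, 15.6, 12.4 and 12 CPM in the shAsns-1-labelled libraries A to D and 84.8, 72.6, 89.9 and 60.3 CPM in the shRenilla libraries A to D (log2 fold change -2.56 ± 0.16 SE, adjusted p = 4.37e-12). Every library of the label was below every shRenilla library for Dsg2. Tight junction and polarity genes followed the same direction. The claudin genes Cldn4 and Cldn3 went from 7.55 to 1.13 CPM and from 11.7 to 1.92 CPM (group means of shRenilla and shAsns-1-labelled libraries), Ocln, for occludin, from 22.9 to 4.35 CPM, Cgn, for cingulin, from 26 to 4.71 CPM, and Crb3, a polarity protein, from 0.812 to 0.114 CPM. Epcam, an adhesion protein of carcinoma cells, measured 19.9, 21.7, 21 and 15.5 CPM against 104, 69.5, 80.2 and 60.1 CPM (log2 fold change -2.003 ± 0.15 SE, adjusted p = 1.49e-10). The 2 that rose were Ppl, the desmosome-linked periplakin (1.01 ± 0.17 SE, adjusted p = 7.2e-05), and Ctnnb1, for beta-catenin, which also acts in Wnt signalling (0.47 ± 0.13 SE, adjusted p = 0.00795).

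Most of the keratin genes tested fell, among them basal and simple keratins. Of 9 keratin genes tested, 5 fell, 1 rose and 3 were not called, a called share of 66.7% beside 33.9% of all genes. Krt14, a basal keratin, measured 6.48, 5.82, 4.99 and 5.33 CPM in the shAsns-1-labelled libraries A to D and 51.5, 55.5, 50.1 and 46.2 CPM in the shRenilla libraries A to D (log2 fold change -3.17 ± 0.18 SE, adjusted p = 2.62e-12). Krt7 measured 11, 19.5, 11.8 and 8.41 CPM against 71.1, 85, 87 and 73.4 CPM (log2 fold change -2.65 ± 0.24 SE, adjusted p = 4.91e-09), and Krt17 and Krt16, keratins of basal and stressed epithelium, went from 2.83 to 0.245 CPM and from 3.45 to 0.798 CPM. Krt19 fell less, from 5.65 to 3.78 CPM, and its libraries overlapped. Krt8 and Krt18 gave log2 values of 0.25 ± 0.15 and 0.06 ± 0.19 and were not called. Krt13 rose from a level near the detection limit (0.0798 to 0.355 CPM). The call of Krt19 ended without shAsns-1-labelled A, C or D or without shRenilla A, B or D, with an adjusted p of 0.0517 to 0.119.

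The regulators of the epithelial state went in both directions. Of 22 tested, 11 fell and 5 rose, with a median log2 fold change of -0.78. Their called share was 72.7% beside 33.9% of all genes. Ovol1, a repressor of EMT genes, measured 0.419, 0.27, 0.564 and 0.25 CPM in the shAsns-1-labelled libraries A to D and 3.19, 3.56, 3.17 and 2.07 CPM in the shRenilla libraries A to D (log2 fold change -2.97 ± 0.28 SE, adjusted p = 7.44e-09). Its relative Ovol2 went from 0.808 to 0.182 CPM, the Grainyhead genes Grhl1 and Grhl2 from 1.71 to 0.337 CPM and from 21.8 to 8.7 CPM, and the membrane traffic genes Rab25 and Myo5b from 0.868 to 0.0333 CPM and from 1.78 to 0.203 CPM. At such levels the fitted fold changes, of Rab25 above all, depend on the prior count of the fit. The 5 that rose were Klf4 (0.86 ± 0.17 SE, adjusted p = 0.000309), the RNA-binding protein gene Rbm47 (0.80 ± 0.12 SE, adjusted p = 1.11e-05), Tfap2a, Sox9 and the luminal factor gene Gata3 (0.33 ± 0.12 SE, adjusted p = 0.0327), whose changes were smaller and in the case of Tfap2a and Gata3 overlapped between libraries. The call of Tfap2a ended without shAsns-1-labelled D or without shRenilla B or D, with an adjusted p of 0.0533 to 0.0571, and that of Gata3 without shAsns-1-labelled B or D or without shRenilla B or D, with an adjusted p of 0.0684 to 0.117, or with no filter on low counts, at 0.0522.

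**Figure D2:**
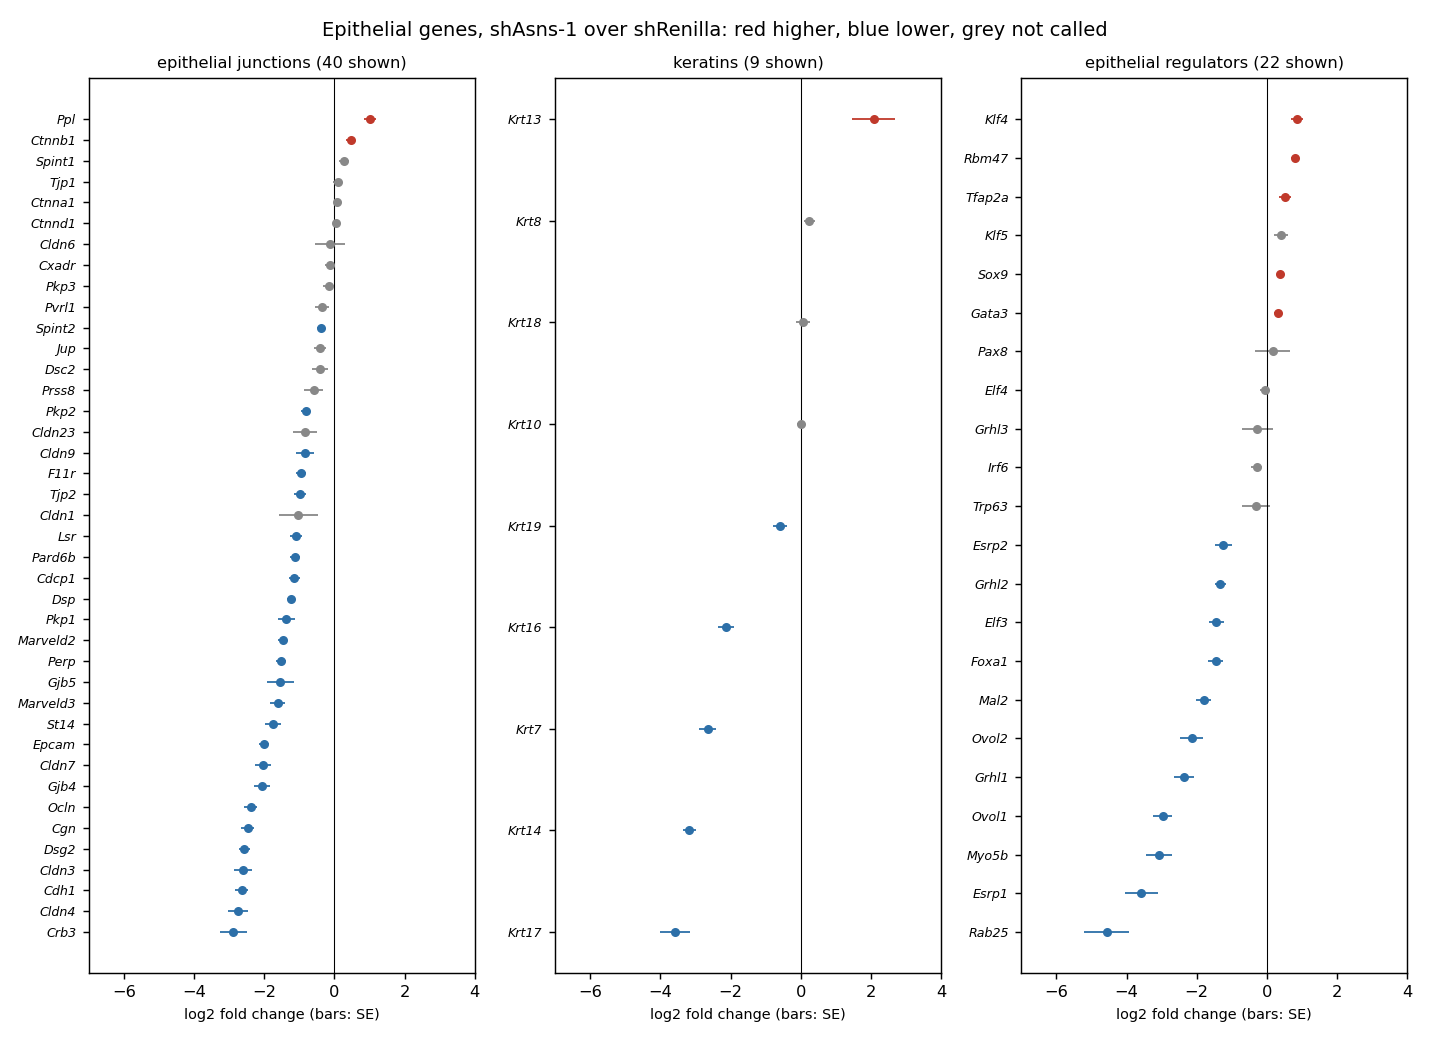
Log2 fold change of shAsns-1-labelled over shRenilla libraries (horizontal, bars are SE) for 40 tested junction genes and for each tested keratin and epithelial regulator. Blue points are lower, red higher and grey not called; 25 of these 40 junction genes, 5 of 9 keratins and 11 of 22 regulators are blue.

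The DNA just before the starts of the junction genes was examined for the E-box letters CAGGTG or CACCTG, the sequence that Snail and Zeb proteins are known to bind. Each of these words is the reverse complement of the other, so a single search covers both strands. RefSeq promoters (GRCm38.p6, a C57BL/6J genome, while 4T1 comes from BALB/c) were available for 9309 tested genes. The 250 bases upstream of the start held the word in 17.2% of all 32851 promoters of the table. The shares that follow count genes, and a gene with several promoters counted if any of them held the word. The word was present in 18% of the 9309 tested genes. It was present in 18.5% of 1551 genes that were higher, in 20.8% of 1571 that were lower, and in 17.2% of 6187 not called. Among genes at least 2-fold lower it was in 29.1% of 326, and among those at least 2-fold higher in 20.4% of 313. Of junction genes that fell, 10 of 15 with a promoter in the table held it, and of all tested junction genes 11 of 22. These shares are descriptions of letters, were not tested, and say nothing about binding in these cells.

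The windows below are the 120 bases upstream of the RefSeq start, printed 5′ to 3′ on the gene's strand with the word in capitals. Of 20 lower junction genes or regulators with a RefSeq promoter, 10 held the word this close to a start, with a chromosome left out. Within 120 bases the word was in 8.1% of all tested genes, 10.2% of lower genes and 8.32% of higher genes. It was in 16.3% of genes at least 2-fold lower and 8.95% of those at least 2-fold higher. These shares were not tested. The windows belong to the 5 of the 10 genes whose window touches no exon of GENCODE M21. They were chosen for holding the word and are shown so that the letters can be seen beside the falls. The genes are Epcam (chr17:87635859-87635978 on the plus strand), Cldn4 (chr5:134946935-134947054 on the minus strand), Lsr, a gene of tricellular junctions (chr7:30973470-30973589 on the minus strand), Pard6b, a polarity gene (chr2:168080884-168081003 on the plus strand) and Spint2, a protease inhibitor gene (chr7:29281978-29282097 on the minus strand).
Epcam: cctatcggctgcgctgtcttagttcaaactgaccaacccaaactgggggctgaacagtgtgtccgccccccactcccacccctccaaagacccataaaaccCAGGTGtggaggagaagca
Cldn4: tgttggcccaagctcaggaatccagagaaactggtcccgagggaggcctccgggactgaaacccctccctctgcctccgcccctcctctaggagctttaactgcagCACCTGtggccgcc
Lsr: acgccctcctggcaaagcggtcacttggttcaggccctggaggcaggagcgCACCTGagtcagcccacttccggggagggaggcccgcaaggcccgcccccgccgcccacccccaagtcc
Pard6b: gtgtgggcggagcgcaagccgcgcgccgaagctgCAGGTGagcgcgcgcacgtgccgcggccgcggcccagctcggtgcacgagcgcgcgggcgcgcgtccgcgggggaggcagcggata
Spint2: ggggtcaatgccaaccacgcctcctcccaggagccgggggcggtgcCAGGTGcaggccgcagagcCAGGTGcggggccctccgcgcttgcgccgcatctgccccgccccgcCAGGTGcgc
Counted from the first transcribed base back, the first letter of the word lies at -19 in Epcam, -14 in Cldn4, -69 in Lsr and -86 in Pard6b, and at -74, -55 and -9 in Spint2. Lsr fell from 43.8 to 20.4 CPM (log2 fold change -1.10 ± 0.17 SE, adjusted p = 2.22e-05), Pard6b from 19.6 to 8.96 CPM (-1.13 ± 0.15 SE, adjusted p = 1.29e-06) and Spint2, the least changed of the 5, from 218 to 168 CPM (-0.38 ± 0.11 SE, adjusted p = 0.0112). The call of Spint2 ended without shAsns-1-labelled D or without shRenilla A, with an adjusted p of 0.0517 to 0.0534.

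On the mesenchymal side, EMT transcription factor genes rose more often than they fell, while the effectors showed no common direction. Of 12 EMT transcription factor genes tested, 5 rose, 1 fell and 6 were not called, a called share of 50% beside 33.9% of all genes. Their median log2 fold change was 0.07, near the -0.01 of all genes. Twist1 measured 38.3, 46.6, 35.3 and 45.6 CPM against 19.8, 17.1, 26.4 and 15.7 CPM and Zeb2 91.1, 103, 93.7 and 113 CPM against 54.4, 59.6, 64 and 59.8 CPM, without overlap, and Foxc2, Tcf3 and Tcf4 rose by smaller amounts (log2 fold changes 0.76 ± 0.18, 0.56 ± 0.19 and 0.44 ± 0.10). The call of Tcf3 ended without shAsns-1-labelled B or D or without shRenilla A, B or D, with an adjusted p of 0.0578 to 0.102. Snai3, a Snail family member, was nearly absent from the label. It held 1 to 3 counts per library, or 10 in all 4, against 1.22, 2.14, 1.67 and 1.16 CPM in shRenilla (adjusted p = 1.66e-08). Of 36 mesenchymal effectors 7 rose and 10 fell, with a median of -0.23 and a called share of 47.2%, also beside 33.9% of all genes. Mgp, for matrix Gla protein, measured 24, 22.2, 31.3 and 20.0 CPM in the shAsns-1-labelled libraries A to D and 3.82, 1.43, 1.47 and 1.93 CPM in the shRenilla libraries A to D (log2 fold change 3.50 ± 0.30 SE, adjusted p = 1.6e-09). The thrombospondin gene Thbs2 went from 0.371 to 3.23 CPM and the collagen-crosslinking gene Loxl3 from 1.68 to 6.58 CPM. In the other direction Postn, for the matrix protein periostin, held 1 to 3 counts in each library of the label (10 in all 4) against 3.04, 3.31, 3.47 and 1.89 CPM in shRenilla (adjusted p = 3.24e-08). Postn and Snai3 were the 2 genes with at most 3 counts in every library of one group and at least 1 CPM in every library of the other, and no gene met that rule in the other direction. The matrix gene Fbln2 measured 80.5, 69.9, 71.4 and 94.4 CPM against 268, 277, 349 and 174 CPM (log2 fold change -1.76 ± 0.28 SE, adjusted p = 2.14e-05), without overlap.

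Genes of the basement membrane and its receptors fell more often than they rose. Of 23 integrin and laminin genes 9 fell and 3 rose, a called share of 52.2% beside 33.9% of all genes. Lama3 and Lamb3, which encode chains of the anchoring laminin of epithelia, were both lower. Lama3 measured 3.55, 5.16, 4.76 and 2.58 CPM against 40.9, 36.9, 29.1 and 23.7 CPM (log2 fold change -3.03 ± 0.25 SE, adjusted p = 9.08e-10), and Lamb3 went from 24.8 to 4.34 CPM (-2.51 ± 0.38). The 3 integrin genes that rose, Itga8, Itga10 and Itga1, stood at low levels (0.612 to 1.86 CPM, 0.926 to 1.94 CPM and 2.31 to 4.34 CPM). Collagens were not one-sided, with 3 higher and 3 lower of 19, a called share of 31.6% beside 33.9% of all genes. Col6a1 (1.45 ± 0.21 SE, adjusted p = 5.91e-06), Col18a1 and Col17a1 rose, and Col7a1 (-0.94 ± 0.24 SE, adjusted p = 0.00373), Col12a1 and Col8a1 fell. The call of Col17a1 ended without shAsns-1-labelled A, C or D or without shRenilla B or D, with an adjusted p of 0.0617 to 0.101, and with no filter on low counts, at 0.0946.

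Extracellular proteases and their inhibitors changed in a mixed but mainly downward way. Of 24 metalloproteinases and inhibitors 8 fell and 2 rose, the latter being Mmp3 and Adamts9 (0.653 to 4.5 CPM). Their called share was 41.7% beside 33.9% of all genes. Adam12 and Adamts1, named above, fell most, and the gelatinase gene Mmp9 measured 9.69, 9.06, 11.7 and 12.5 CPM against 34.3, 34.2, 45.4 and 25 CPM (log2 fold change -1.69 ± 0.25 SE, adjusted p = 1.05e-05). In the plasminogen, cathepsin and serpin list 13 of 23 fell and 1 rose, a called share of 60.9% beside 33.9% of all genes. Plau, for the plasminogen activator urokinase, fell (22.8, 21.5, 33.7 and 24 CPM against 71.3, 74.3, 62.5 and 75.5 CPM, -1.47 ± 0.18 SE, adjusted p = 6.02e-07). Serpine2, for protease nexin-1, was the 1 that rose (239, 156, 303 and 178 CPM against 104, 64.6, 46.3 and 65.5 CPM, 1.64 ± 0.25 SE, adjusted p = 1.28e-05), and every library of the label was above every shRenilla library. Serpin genes of 1 cluster are near copies, and the counts of Serpina3g (from 0.542 to 0.156 CPM) are uncertain for that reason.

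Chemokines fell more often than they rose, while cytokines went in both directions. Of 18 chemokine and receptor genes 10 fell and 1, Cxcr3, rose, a called share of 61.1% beside 33.9% of all genes. The call of Cxcr3 ended without shAsns-1-labelled A, B or C or without shRenilla B, C or D, with an adjusted p of 0.0675 to 0.14, and with limma, at an adjusted p of 0.065. Cxcl16, a membrane-anchored chemokine, measured 9.99, 11.9, 9.92 and 9.36 CPM against 51, 64.6, 53.7 and 53.4 CPM (log2 fold change -2.44 ± 0.14 SE, adjusted p = 2.62e-12), and the neutrophil-attracting Cxcl2 went from 1.3 to 0.421 CPM and the scavenging receptor gene Cxcr7 from 47.8 to 15.3 CPM. Of 24 cytokine genes 9 rose and 8 fell, a called share of 70.8% beside the same 33.9%. Beside Tslp and Spp1, the risers included 2 members of the interleukin 1 family, Il33 (from 0.337 to 2.35 CPM) and Il18 (7.82, 7.13, 8.31 and 6.64 CPM against 2.3, 2.1, 2.2 and 2.56 CPM, log2 fold change 1.70 ± 0.20 SE, adjusted p = 3.24e-07). Il1a, of the same family, went the other way and measured 1.72, 1.12, 2.42 and 1.44 CPM against 8.9, 10.9, 7.68 and 13.8 CPM (log2 fold change -2.60 ± 0.22 SE, adjusted p = 1.81e-09). Tnfsf15 fell from 11 to 1.54 CPM and Il23a measured 14.3, 11.2, 12.7 and 10.4 CPM against 49, 46.3, 44.7 and 36.8 CPM (log2 fold change -1.87 ± 0.14 SE, adjusted p = 1e-10). Ptgs2, for the prostaglandin enzyme COX-2, measured 597, 584, 524 and 616 CPM against 1882, 1533, 1779 and 1325 CPM (log2 fold change -1.49 ± 0.24 SE, adjusted p = 2.85e-05), and the groups did not overlap.

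NF-kappaB is known to drive many inflammatory genes, and 12 of 22 genes of its pathway fell while 1 rose. The called share of these pathway genes was 59.1% beside 33.9% of all genes. Cd40, a receptor of the tumor necrosis factor family, went from 2.01 to 0.115 CPM, and the adhesion gene Icam1 from 14.7 to 5.94 CPM. Tnfaip3, for the feedback inhibitor A20, measured 43.3, 55, 38.6 and 48.3 CPM against 101, 118, 129 and 99 CPM (log2 fold change -1.27 ± 0.15 SE, adjusted p = 3.01e-07). The riser was Tnfaip2 (124, 142, 144 and 136 CPM against 57.4, 59.5, 63.5 and 65.9 CPM, 1.15 ± 0.11 SE, adjusted p = 1.06e-08), and neither gene overlapped between groups. Of 44 interferon response and MHC class I genes 3 rose and 8 fell, beside 16.2% higher and 17.7% lower of all genes. Those that fell included Bst2 (1.61 to 0.318 CPM), the class I gene H2-Q4 (6.32 to 2.24 CPM) and Irf1 (46.3 to 27.1 CPM). Class I genes are near copies of each other, so the split of reads between them is uncertain.

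TGF-beta and YAP pathway genes changed in both directions. Of 28 TGF-beta genes 8 fell and 4 rose, a called share of 42.9% beside 33.9% of all genes. The ligand gene Inhba measured 7.13, 8.21, 8.93 and 8.3 CPM against 44.8, 48.6, 47.6 and 47.6 CPM (log2 fold change -2.53 ± 0.28 SE, adjusted p = 1.49e-07), and the induced inhibitor gene Pmepa1 45.8, 39.8, 37.1 and 45.1 CPM against 124, 122, 141 and 109.5 CPM (-1.57 ± 0.23 SE, adjusted p = 7.39e-06). Tgfbr3, for the co-receptor betaglycan, and Smad3, for a signal transducer, rose (23.4, 28.9, 29.9 and 27.7 CPM against 9.61, 7.27, 6.67 and 8.79 CPM and 40.0, 52.3, 51.6 and 50.4 CPM against 19.3, 23, 27.8 and 23.1 CPM; 1.77 ± 0.17 and 1.06 ± 0.14). None of these 4 overlapped. Of 26 YAP and TEAD genes 10 fell and 3 rose, a called share of 50% beside 33.9% of all genes. The target gene Cyr61 measured 73.6, 85, 65.6 and 66.5 CPM against 435, 419, 487 and 268 CPM (log2 fold change -2.47 ± 0.30 SE, adjusted p = 5.49e-07) and Gadd45b 4.69, 4.35, 3.61 and 2.61 CPM against 19.5, 24.9, 15.1 and 17.2 CPM (-2.34 ± 0.26 SE, adjusted p = 1.29e-07), while Wwtr1, which encodes the coactivator TAZ, rose (363, 442, 419 and 447 CPM against 197, 197, 209 and 208 CPM, 1.04 ± 0.15 SE, adjusted p = 9.96e-06). At the RNA level Wwtr1 thus moved opposite to Cyr61 and to Ctgf, another known target named above.

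Growth factor and immediate early genes were divided as well. Of 42 receptor tyrosine kinase and growth factor genes 15 fell and 10 rose, a called share of 59.5% beside 33.9% of all genes. Beside Pdgfb and Macc1, the lymphatic growth factor gene Vegfc fell (17.6, 18.6, 14.9 and 15.2 CPM against 53.5, 57.7, 59.9 and 39.6 CPM, -1.67 ± 0.19 SE, adjusted p = 1.52e-07). Tgfa, a ligand of the EGF receptor, rose (50.9, 60.8, 59.2 and 63.6 CPM against 23.9, 32.6, 28.9 and 23.6 CPM, 1.11 ± 0.11 SE, adjusted p = 1.66e-08), and so did the receptor gene Mertk from a low level (0.331 to 1.13 CPM). Of 34 AP-1 and immediate early genes 11 rose and 10 fell, a called share of 61.8% beside the same 33.9%. Of those that rose, several are known targets or feedback inhibitors of the ERK pathway. Dusp6, an ERK phosphatase, measured 306, 341, 319 and 369 CPM against 137, 141, 157 and 146 CPM (1.20 ± 0.13 SE, adjusted p = 5.12e-08), Spred1 279.5, 288, 305 and 329.7 CPM against 130.5, 122, 128 and 138 CPM (1.21 ± 0.14 SE, adjusted p = 2.21e-07) and Etv5 22.7, 28.2, 24.7 and 25.7 CPM against 8.9, 10.2, 10.9 and 10.6 CPM (1.32 ± 0.14 SE, adjusted p = 4.13e-08). The early genes Egr1 and Egr2 rose too (3.88 to 9.07 CPM and 0.278 to 0.904 CPM). Those that fell included Atf3 (4.77, 4.82, 4.54 and 4.3 CPM against 9.42, 12.5, 11.2 and 11.1 CPM, -1.26 ± 0.12 SE, adjusted p = 9.33e-09) and Junb (39.7 to 20.6 CPM), so the immediate early genes did not change as 1 block.

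Among the enzymes around asparagine 26.3% were called, beside 33.9% of all genes. Of 19 enzymes and synthetases of asparagine, aspartate and glutamine, Asns was the 1 that rose, and 4 fell. The 4 were Prodh (-0.74 ± 0.16 SE, adjusted p = 0.00075), Nars, the synthetase that loads asparagine onto its tRNA (-0.50 ± 0.11 SE, adjusted p = 0.00151), Got1 (-0.49 ± 0.10) and Gpt2 (-0.47 ± 0.15). ATF4, which induces Asns when amino acids are short, had 5 of 28 list genes higher and 5 lower. Their called share, 35.7%, was near the 33.9% of all genes. The risers included Cth, an enzyme of cysteine synthesis (20.1, 21.3, 22.4 and 21.1 CPM against 10.3, 9.23, 7.18 and 9.6 CPM, 1.23 ± 0.21 SE, adjusted p = 6.3e-05), Nupr1 (1.15 ± 0.20 SE, adjusted p = 6.5e-05) and Cebpb (1.06 ± 0.14 SE, adjusted p = 2.36e-06). Atf4 itself fell slightly, with overlap (-0.33 ± 0.12 SE, adjusted p = 0.0311), and its call ended without shAsns-1-labelled A, C or D or without shRenilla B or C, with an adjusted p of 0.051 to 0.113, or with no filter on low counts, at 0.059. Cytosolic aminoacyl-tRNA synthetases, which load amino acids onto tRNA, went the opposite way from Asns: 14 of 20 fell and 0 rose. The called share of these synthetases was 70% beside 33.9% of all genes. Farsa (-0.73 ± 0.14 SE, adjusted p = 0.000171) and Wars (-0.64 ± 0.17 SE, adjusted p = 0.00582) were among those that fell.

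Lars2 fell most among 17 mitochondrial synthetases, of which 7 fell and 1, Nars2, rose. Their called share was 47.1% beside 33.9% of all genes. The call of Nars2 ended without shAsns-1-labelled B or D or without shRenilla B or C, with an adjusted p of 0.0562 to 0.0782, or with no filter on low counts, at 0.0572. Lars2, the leucine enzyme, measured 171, 124, 248 and 218 CPM in the shAsns-1-labelled libraries A to D and 337, 570.4, 434 and 418 CPM in the shRenilla libraries A to D (log2 fold change -1.21 ± 0.18 SE, adjusted p = 1.24e-05). Library B was lowest of its group for Lars2 in the label and highest in shRenilla, as it was for Rn45s, and the part of ribosomal RNA in this value was not tested. Amino acid transporters had 8 lower and 1 higher of 21, a called share of 42.9% beside 33.9% of all genes. Slc1a5, a glutamine carrier, fell (90.0 to 48.3 CPM, -0.90 ± 0.17 SE, adjusted p = 0.000247), as did Slc7a7 (2.14 to 0.901 CPM), and the glycine carrier gene Slc6a9 rose from a low level (0.76 to 1.4 CPM).

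Lipid synthesis genes fell more often than they rose, and a pair of cholesterol export genes rose. Of 26 cholesterol genes 14 fell and 2 rose, a called share of 61.5% beside 33.9% of all genes. Sc4mol, a sterol oxidase gene, went from 436 to 182 CPM (-1.27 ± 0.22 SE, adjusted p = 7e-05). The 2 that rose, Abca1 and Abcg1, encode transporters that carry cholesterol out of the cell (1.49, 1, 1.86 and 1.75 CPM against 0.853, 0.143, 0.567 and 0.245 CPM and 3.58, 2, 2.56 and 2.44 CPM against 0.816, 0.82, 0.667 and 1.23 CPM). They were low in both groups and did not overlap. Of 25 fatty acid genes 12 fell and 4 rose, a called share of 64% beside the same 33.9%. Fads3, of the desaturase family, measured 11.6, 14, 9.1 and 9.38 CPM against 37.5, 38.5, 44.9 and 30.1 CPM (-1.78 ± 0.16 SE, adjusted p = 4.93e-09) and Dgat2, which makes triglycerides, went from 11.7 to 4.81 CPM (-1.28 ± 0.16 SE, adjusted p = 1.33e-06).

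Endoplasmic reticulum chaperone genes fell more often than they rose, and antioxidant, hypoxia and respiratory genes were more often higher than lower. Of 30 chaperone and unfolded protein response genes 14 fell and 3 rose, a called share of 56.7% beside 33.9% of all genes. Pdia3 (783 to 381 CPM, -1.04 ± 0.22 SE, adjusted p = 0.000644), Dnajb11 and P4hb were among the falls beside Hspa5. Of 37 NRF2 genes 18 rose and 4 fell, a called share of 59.5%. Mgst1, a membrane glutathione transferase, measured 72.5, 48.5, 62.7 and 48 CPM against 25.1, 17.8, 16.3 and 22.8 CPM (1.499 ± 0.18 SE, adjusted p = 4.77e-07) and Mgst2 22.9, 18.2, 21.3 and 16.2 CPM against 8.2, 6.59, 8.28 and 9.53 CPM (1.27 ± 0.16 SE, adjusted p = 9.84e-07), both without overlap. Of 38 hypoxia and glycolysis genes 14 rose and 5 fell, a called share of 50%. Egln3, an oxygen sensor, rose (23.5 to 45.9 CPM, 0.96 ± 0.13 SE, adjusted p = 1.85e-06), and P4ha2, a collagen hydroxylase, fell (21.9 to 7.89 CPM, -1.47 ± 0.22 SE, adjusted p = 1.28e-05). Respiratory chain subunits had 16 higher and 2 lower of 75, with small differences such as that of Ndufv3 (0.58 ± 0.15 SE, adjusted p = 0.00329). At 24% their called share was below the 33.9% of all genes. Ribosomal protein genes were called in 11 of 80, or 13.8%, also below all genes, 5 higher and 6 lower, with a median of 0.02.

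Of 58 mitosis and replication genes 15 rose and 4 fell, at a called share of 32.8% beside 33.9% of all genes. Cdkn2d, an inhibitor of cyclin-dependent kinases, rose (34.8, 30.1, 36.1 and 28.4 CPM against 15.7, 15.5, 15.4 and 18.3 CPM, 1.00 ± 0.13 SE, adjusted p = 1.07e-06), as did E2f8, a repressor of cell cycle genes (50.5 to 99.2 CPM, 0.97 ± 0.16 SE, adjusted p = 3.17e-05), and Ccnb2. Cyclin D2, from Ccnd2, went the other way (41.5, 48.1, 46.4 and 50.5 CPM against 91.5, 101, 128 and 113 CPM, -1.22 ± 0.13 SE, adjusted p = 1.22e-07). Of 54 replication-dependent histone genes 7 rose, all of them Hist1h2a genes such as Hist1h2ah (8.37 to 16.5 CPM, 0.98 ± 0.30 SE, adjusted p = 0.0133), and 1, the linker histone gene Hist1h1c, fell. The called share of these histone genes, 14.8%, was below that of all genes, and their median log2 fold change was -0.03. These H2A genes are near copies of each other and are uncertain as single values, and the call of Hist1h2ah ended without shRenilla B, with an adjusted p of 0.0633, or with no filter on low counts, at 0.0539. Among 21 genes of purine salvage and thiopurine handling 9 fell and 2 rose, a called share of 52.4% beside 33.9% of all genes. The nucleoside transporter gene Slc29a2 fell (-0.95 ± 0.23 SE, adjusted p = 0.00206), and Tpmt, which methylates and inactivates thiopurines, rose (0.59 ± 0.12 SE, adjusted p = 0.000356).

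**Figure D3:**
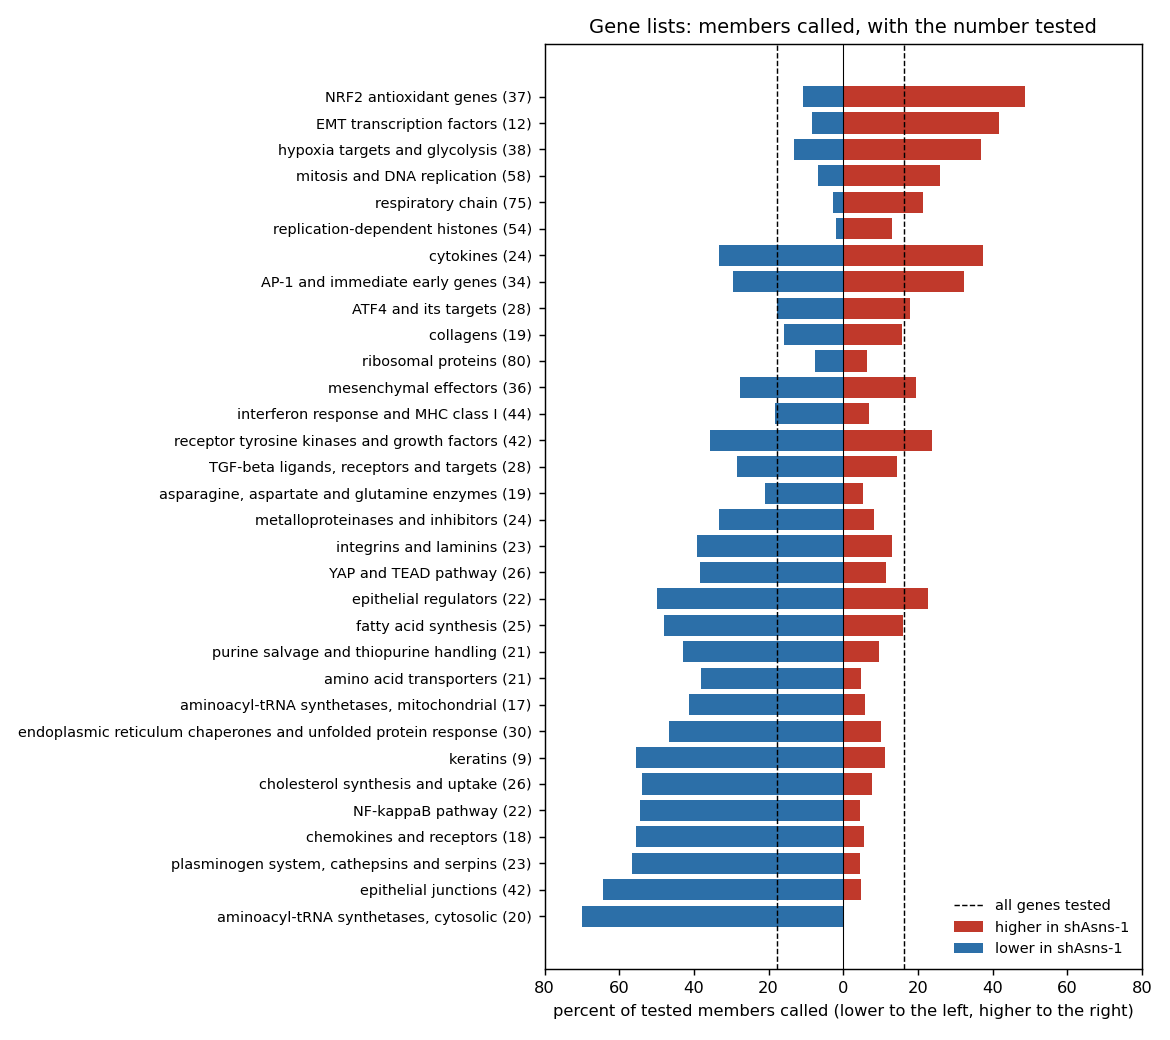
Percent of the tested members of each gene list called higher (red, to the right) or lower (blue, to the left) in the shAsns-1-labelled libraries, with the number tested in brackets. Dashed lines mark the share over all genes, 16.2% higher and 17.7% lower; cytosolic aminoacyl-tRNA synthetases reach furthest to the left (14 of 20) and NRF2 genes to the right (18 of 37).

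Between the same labels fewer genes were called in lung-derived cells. In lung, shRenilla library B stood apart from the other 3 (chi-square per degree of freedom 135 to 162 against 5.7 to 9.85 among the others). Of 12625 genes 26 were called by edgeR between lung shAsns-1 and lung shRenilla, or 0.206%. The number was 16 without shRenilla B, 12 without shRenilla A, 13 without shAsns-1 D and 27 without shRenilla B and shAsns-2 D together. It was 73 with DESeq2 and 758 with limma, against 5878 with limma in tumor-derived cells. Of the 26, 21 were called in the same direction in tumor-derived cells, Asns included, and 1 in the opposite direction. Of all genes 33.9% were called in tumor-derived cells, in either direction. Genes called in tumor-derived cells had a median absolute log2 fold change of 0.16 in lung, with the same sign for 2756 of 4278. The same-sign share over all genes was not counted. Over all 12625 genes the log2 fold changes in tumor and lung had a correlation of r = 0.20. The difference between the tumor and the lung effect, tested as an interaction over libraries that the contrasts do not share, was called for 1797 genes, or 14.2%, with 918 more positive in tumor (7.27%) and 879 more negative (6.96%). The number was 3676 with limma. Without the lung libraries shRenilla B and shAsns-2 D it was 2651, with 1290 more positive and 1361 more negative. Of the 1797, 1689 were also called in tumor. Both calls use the same tumor libraries, so much of this overlap is built in. Asns was not among the 1797 (-0.57, adjusted p = 0.085).

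Among genes with an average log2 CPM of 3 or more, the largest interactions included those of Tslp (3.95), Amigo2 (3.94), Pdgfb (-3.29), Rgs16 (-3.19), Trib2 (3.17), Krt14 (-3.09), Moxd1 (-2.99), Mmp3 (2.72) and Gadd45b (-2.70). For some of these genes the lung libraries of every hairpin lay around the shAsns-1-labelled tumor libraries. Tslp ranged from 311 to 728 CPM over the 12 lung libraries, and all 4 shAsns-1-labelled tumor libraries fell in that range, while the 4 tumor shAsns-2 libraries, at 36.9 to 71 CPM, lay with tumor shRenilla. Macc1 ranged from 4.38 to 15.5 CPM in lung and from 79.3 to 112 CPM in tumor shAsns-2. Of the 15 largest rises, all 4 shAsns-1-labelled libraries lay within the range of the 12 lung libraries for 7 genes, and of the 15 largest falls for 8. The same share over all genes was not counted, so these counts cannot show a particular likeness to lung-derived cells. The range includes shRenilla B, and shAsns-2 D, which also stood apart from its group (chi-square per degree of freedom 91.7 to 108.5). Such libraries can widen it. Between tumor and lung libraries that share the shAsns-1 label 1079 genes were called, or 8.55%, and these included 2 of the 15 rises (Casp1 and Gchfr) and 3 of the 15 falls (Fgfbp1, Macc1 and Serpinb5). Asns did not follow the site: across both sites it lay at 152 to 219 CPM in the 8 shAsns-1-labelled libraries and 26.2 to 100.2 CPM in the other 16.

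**Figure D4:**
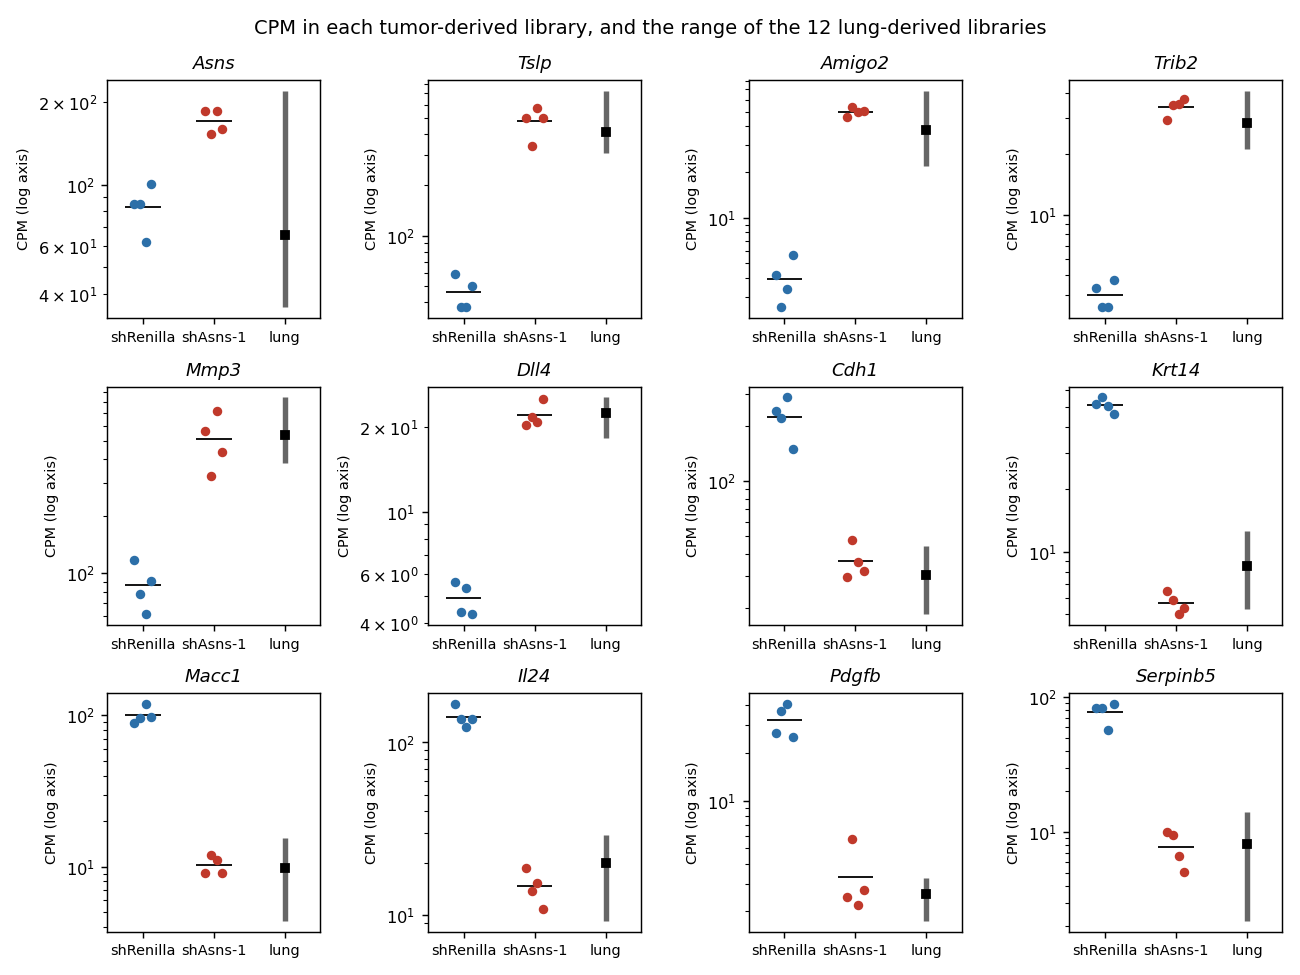
CPM on a log axis for 12 genes in each tumor-derived library (blue shRenilla, red shAsns-1-labelled, line at the mean), with the range (bar) and median (square) of all 12 lung-derived libraries in grey and black. For Asns the lung range is wide, 35.8 to 219 CPM; for Tslp, at 311 to 728 CPM, and Macc1, at 4.38 to 15.5 CPM, it covers all 4 shAsns-1-labelled tumor libraries.

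**Figure D5:**
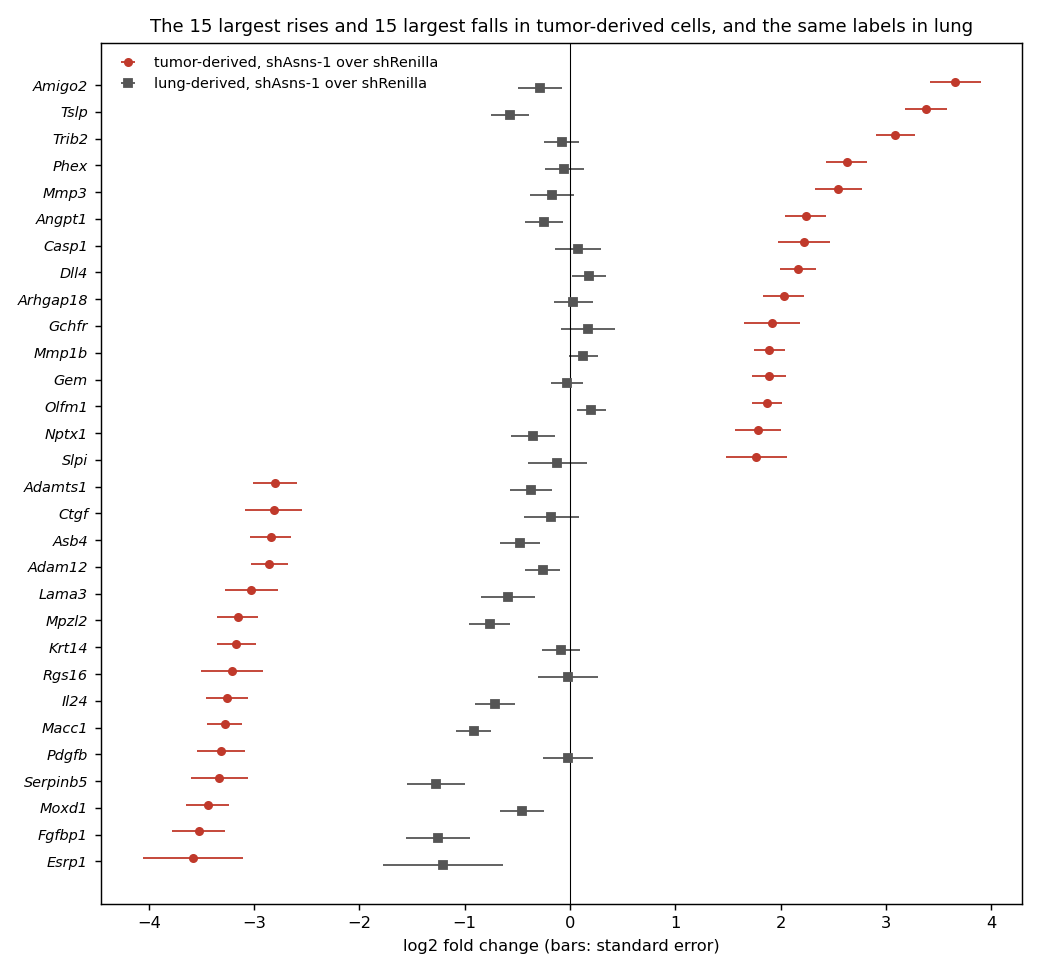
Log2 fold change of shAsns-1-labelled over shRenilla libraries in tumor-derived (red) and lung-derived cells (grey), bars are SE, for the 15 largest rises and 15 largest falls in tumor. The genes were chosen by the red values; the grey values, from other libraries, lie between -0.57 and 0.20 for the rises and between -1.27 and -0.02 for the falls.

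Along the genome the calls were spread over all autosomes. The median log2 fold change per autosome ran from -0.147 on chromosome 15, with 50 higher and 138 lower of 490 genes, to 0.0811 on chromosome 2. On chromosome 15 the region from 75890956 to 77399110 (GRCm38), a run of 50 tested genes, held 1 higher and 21 lower gene, with a median of -0.297 in tumor and 0.096 in lung. Over 1163 overlapping runs of 50 genes the median ranged from -0.338 to 0.238. Copy number was not tested. By GC content, genes in the middle quartiles were called lower more often (21.2 and 21%) than those in the lowest (13.6%) and highest (15.1%), while the share called higher stayed between 15.9 and 16.6%. By level, the share called lower ran from 15% in the lowest quartile to 20.4% in the third.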

How the data were processed

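The deposited file held raw read counts per gene symbol (23478 symbols, 1 column per library), used as deposited by the authors. The submitters' processing notes name Bowtie2 and HTSeq as tools and mm10 as the build, and give no version; the annotation and the strand setting are not given in the sources used here, so overlapping and antisense genes cannot be told apart. Libraries were assigned to groups by the sample descriptions that the column names repeat. Totals were 8.48 to 38 M counts over all 24 libraries. No pair of libraries within the compared groups was a duplicate (lowest chi-square per degree of freedom 11.67).

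Genes were tested in R 4.3.3 with edgeR 4.0.16: filterByExpr (12625 genes kept), TMM scaling, 1 mean per group over all 24 libraries, robust quasi-likelihood dispersion and the quasi-likelihood F test, with Benjamini-Hochberg adjustment over all genes and calls at an adjusted p under 0.05. The biological coefficient of variation was 14.9%. The fit was also tested on simulated data. The SE of a log2 fold change is its size divided by the square root of F; log2 CPM used a prior count of 2. Positions came from GENCODE M21 (12515 tested genes) and promoters from RefSeq. Alternatives were DESeq2 1.42.0, other scalings, limma 3.58.1, no filter, only the compared groups, GC content and length offsets, a 1.5-fold minimum, the replicate letter as a block, leaving out each library and, chosen after seeing the data, leaving out the lung libraries shRenilla B and shAsns-2 D, and every alternative of the lung comparison. Figures used matplotlib 3.10.9.

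The comparison, the 32 gene lists and the 11 marker lists were chosen with earlier results of these data known, so their counts are descriptions. Genes were named by rule: Asns and Hprt, the 15 largest rises and falls among genes averaging 3 or more in log2 CPM, without overlap, the 10 largest gains and losses in CPM, the 4 largest called changes per list, the 10 largest differences between sites, and genes nearly absent from 1 group. Every other gene, such as Epcam, Wwtr1 and Dusp6, was named after its values were seen. A few genes that the rule or the lists include are not reported here by name, but remain in the fit and in the counts.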

Additional observations from a re-analysis of the deposited data

Results flagged for a closer look

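Single libraries stood apart from the other 3 of their group for 17 of the 179 genes named, by Dixon's criterion for groups of 4, which chance alone meets in about 1 in 20 groups. Here it was met in 18 of 358 groups checked. In the shAsns-1-labelled libraries these were library A for Col7a1 (6.37 CPM), Krt13 (0.496 CPM) and Smad3 (40.04 CPM), library B for Crb3 (0.27 CPM), Dsg2 (15.6 CPM) and Pdgfb (5.74 CPM), library C for Cebpb (38.6 CPM), and library D for Foxc2 (25.7 CPM). In shRenilla they were library A for Tmed5 (1984 CPM), library B for Wars (65.3 CPM), library C for E2f8 (63 CPM), Foxc2 (17.3 CPM), Pard6b (25.8 CPM), Tfap2a (42.4 CPM) and Vim (3153 CPM), and library D for Cdkn2d (18.3 CPM), Mpzl2 (64.2 CPM) and Prodh (15.1 CPM).

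The effect of the label differed between tumor- and lung-derived cells for 1797 genes by the edgeR interaction test. Among the largest differences, in log2 units as the tumor minus the lung effect, were Tslp (3.95), Amigo2 (3.94), Pdgfb (-3.29), Rgs16 (-3.19), Trib2 (3.17), Krt14 (-3.09), Moxd1 (-2.99), Mmp3 (2.72) and Gadd45b (-2.70).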

How the results depend on the processing

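The number of genes called, 4278, stayed within 1.5 times under every alternative but 1: with a 1.5-fold minimum 726 were called, 332 higher and 394 lower. It was 4306 with the replicate letter as a block (2050 higher and 2256 lower). With only the compared groups it was 5120, and without the lung libraries shRenilla B and shAsns-2 D it was 5740. Same-lettered libraries deviated together for letter A (r = 0.585), hardly for B (0.096) and in opposite directions for C (-0.61) and D (-0.217). Libraries of different letters reached similar values, such as 0.536 for shAsns-1-labelled D with shRenilla C. These values therefore cannot decide whether the letters pair the libraries. With the block Col17a1 had an adjusted p of 0.0508. Leaving out each of the 8 libraries gave 3438 to 3983 calls, 1567 to 1849 higher and 1871 to 2152 lower. The difference between sites, 1797 genes, was 3676 with limma (1780 more positive and 1896 more negative) and 1831 with the block. It was 2651 without the lung libraries shRenilla B and shAsns-2 D (1290 more positive and 1361 more negative). Without each of 16 libraries it was 1334 to 1858 (702 to 1001 more positive and 625 to 930 more negative). The cause of these shifts was not tested. Of the 175 named genes that were called, 119 kept their call in every alternative and 163 in all but the 1.5-fold minimum. No called gene changed direction. Krt18, not called, moved from 0.06 to -0.0336 with offsets for GC content and length and to -0.0024 with limma, and ranged from -0.0554 to 0.1317 when each library was left out. Hprt was called lower with those offsets (adjusted p = 0.000264) and with limma (adjusted p = 0.0114). Depth limits genes at under about 1 CPM, such as Rab25, Crb3 and Krt13, whose fold changes rest on few counts.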
